A study of Mus musculus with 6 samples.

Results

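The genes described here encode the core of transforming growth factor beta (TGF-beta) signalling: the ligands Tgfb1, Tgfb2 and Tgfb3, the receptors Tgfbr1, Tgfbr2 and Tgfbr3, and the intracellular mediators Smad2, Smad3, Smad4 and Smad7. All probe sets annotated to exactly 1 of these 10 genes were taken, which gave 25 of the 45101 probe sets of the array and 10 of the 18193 genes it names. They were measured in 393P, a line grown from a primary lung tumour of a mouse carrying the alleles p53R172H∆g/+ and K-rasLA1/+, so both groups share these mutations. The control group (393P-scr) carried a vector with a scrambled sequence, and the other group (393P-shZ) carried a construct for RNA interference (a short hairpin RNA, or shRNA) against MKK4. MKK4, the product of Map2k4, is a kinase upstream of JNK and p38. The labels describe triplicate cultures of each, so a group has 3 arrays. The labels give mass populations of tumour cells and name no separate clones or independent infections, so a p-value here reflects how much cultures of 1 population per group vary.

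TGF-beta ligands are secreted in a latent form, and once released they bind the type II receptor (Tgfbr2), which recruits and phosphorylates the type I receptor (Tgfbr1). The type I receptor then phosphorylates Smad2 and Smad3, which join Smad4 and enter the nucleus to regulate transcription, while Smad7 blocks the receptor and is itself induced as negative feedback. In epithelial cells the pathway is known both for restraining growth and for driving epithelial-mesenchymal transition, and in lung tumours it is studied for the latter. The type I receptor also signals through TRAF6 and TAK1 to MKK4, JNK and p38. The comparison asks whether transcripts of the pathway differed when MKK4 was depleted.

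Median intensity per array was 92 to 95.8 units, and the highest of 3 control features for the bacterial transcript trpnX lay at 26.5 to 39.5 units. A probe set at or under the trpnX level of its array on all 3 arrays of a group is called near background here. The targeted transcript was lower in every shRNA culture: Map2k4 gave 700, 638 and 597 units on the control arrays and 240, 295 and 287 on the shRNA arrays, a 2.31-fold fall (limma adjusted p = 0.000386). Epithelial genes were bright, with Krt18 at 13973 and Cdh1, the E-cadherin gene, at 7236 units in the control group. Of 8 alveolar and club cell markers, the lung lineage gene Nkx2-1 and the club cell gene Scgb1a1 were near background in both groups. The 6 others were not, with control means from 49.0 (Sftpd) to 1514 units (Aqp5). The 3' to 5' intensity ratio of the actin control transcript was 1.33 to 1.37 on the control arrays and 1.34 to 1.38 on the shRNA arrays.

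Among the ligands, receptors and Smads, 2 of 25 probe sets changed, both downward: 1 of 3 for the type I receptor Tgfbr1 and 1 of 3 for the common mediator Smad4. Each gene had further probe sets that were not called. No probe set of a ligand, of Tgfbr2 or Tgfbr3, or of Smad2, Smad3 or Smad7 passed the test (limma, Benjamini-Hochberg adjusted p under 0.05 over all 45037 probe sets that are not controls). The same fit called 6.37% of all probe sets, 3.57% higher and 2.79% lower. At an unadjusted p under 0.05 the members numbered 5 of 25, against 18.6% of all probe sets. The 2 groups did not overlap in log2 value in 6 of the 25, against 23.1% overall. These shares lie near those of the array as a whole. Brighter probe sets were called more often: tested alone, those above the median brightness were called in 19.1%, and 11 members belonged to them, of which the same 2 were called.

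Of the 25 probe sets 7 were near background in both groups, namely all 4 of Tgfb2, both of Tgfbr3 and 1 of Tgfbr2, and no fold change is given for them. The 18 others came from 8 genes. Of these 18, 6 had a log2 change above 0 and 12 below 0, with a median of -0.03 against -0.01 over all probe sets. Log2 changes here are shRNA minus control, on values to which 16 units were added, which understates the change of dim probe sets. Counted by gene on the brightest probe set, 1 of the 10, Tgfbr1, changed (limma adjusted p = 0.00402), against 11.8% of 18193 genes, 6.37% higher and 5.39% lower. The median log2 change was -0.08 over the 8 genes with a probe set above background, and -0.01 over all genes.

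**Figure D1:**
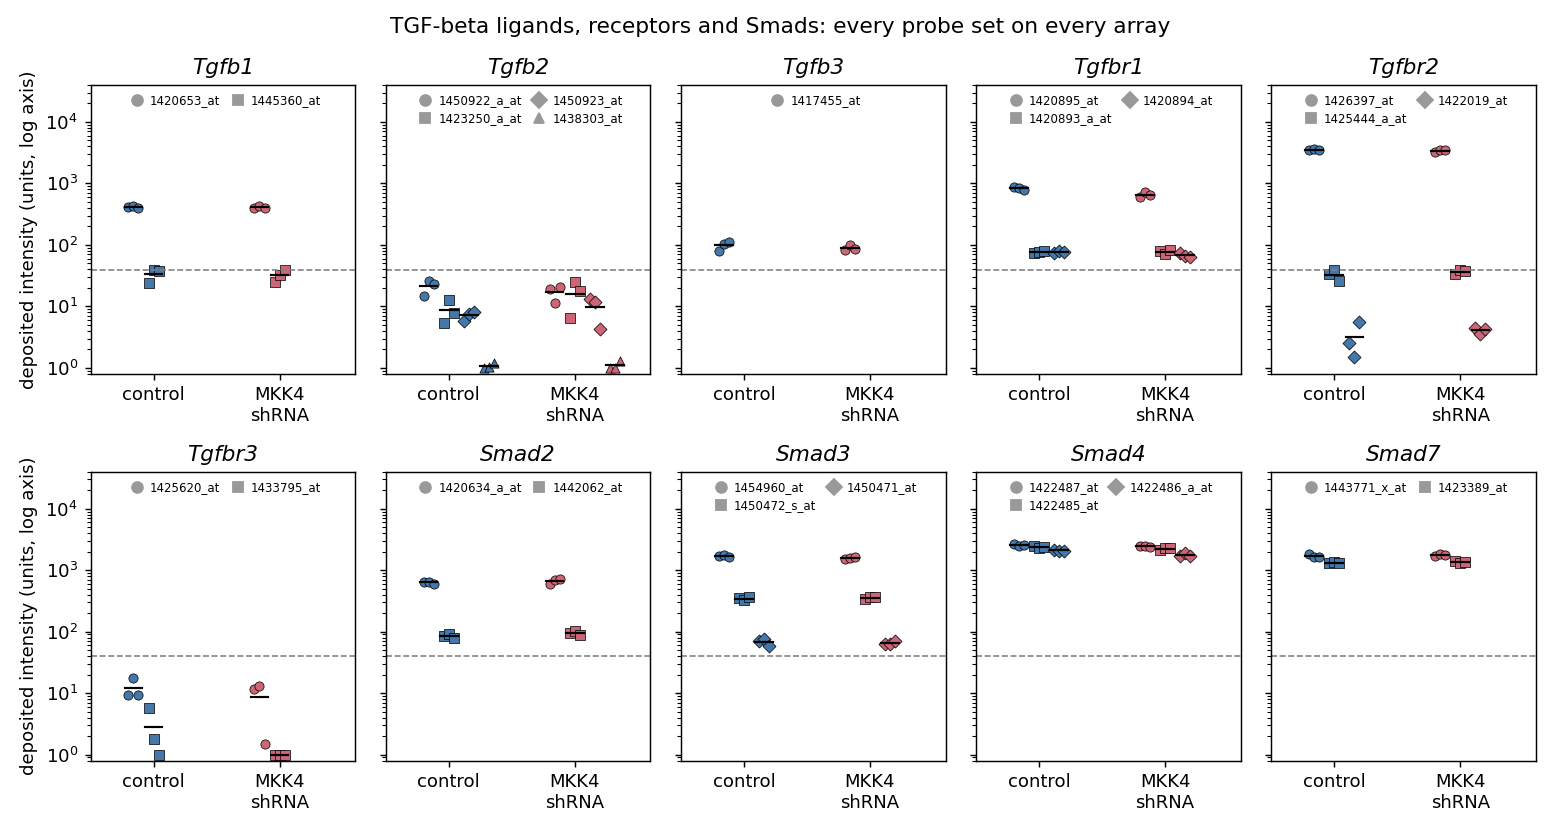
Deposited intensity (log axis) of every member probe set, 1 panel a gene, with 3 control arrays in blue and 3 MKK4 shRNA arrays in red; the marker shape gives the probe set, short bars are group means and the dashed line is the highest trpnX value of any array, 39.5 units. The round markers of Tgfbr1 drop from between 787 and 866 to between 605 and 726 units, while all markers of Tgfb2 and Tgfbr3 lie under the line.

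Of the ligand genes, Tgfb1 was measured well above background and did not differ detectably. TGF-beta 1 is the most widely expressed of the ligands. Its brighter probe set gave 412, 428 and 392 units on the control arrays and 400, 429 and 397 on the shRNA arrays. The groups overlapped almost completely, with means of 411 ± 17.9 and 409 ± 17.7 units (SD, n = 3 each). The log2 change was -0.02 with a limma adjusted p of 0.885, and its 95% confidence interval as a fold ran from 0.909 to 1.07. The second Tgfb1 probe set lay at 23.9 to 39.2 units over all arrays, close to the trpnX level, and gave a log2 change of -0.01.

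Tgfb3, whose product acts in palate and lung development, was dim and variable. Its only probe set gave 80.6, 105 and 113 units in the control cultures and 83.0, 98.7 and 86.0 in the shRNA cultures. The groups overlapped, and the log2 change of -0.14 had a 95% confidence interval from -0.44 to 0.17 (limma adjusted p = 0.668). Tgfb2, which encodes a ligand that needs the co-receptor betaglycan for efficient binding, was near background throughout. Its 4 probe sets ranged from 1 to 25.8 units over the 6 arrays, and 3 of the 4 were designed on the same sequence record. Whether the gene was expressed below that level cannot be read from these arrays.

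The type I receptor gave the largest change among the 18 probe sets above background. Tgfbr1 encodes ALK5, the kinase that phosphorylates Smad2 and Smad3. On its brightest probe set it gave 866, 838 and 787 units on the control arrays and 605, 726 and 641 on the shRNA arrays. Every shRNA array lay below every control array, with group means of 831 ± 40.1 and 657 ± 62.1 units (SD, n = 3 each). The receptor transcript fell 1.27-fold (log2 change -0.35, SE 0.050, limma adjusted p = 0.00782), and it ranked 925 of the 45037 probe sets by p-value. For comparison, the Map2k4 transcript fell 2.31-fold on the brighter of its probe sets.

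The other Tgfbr1 probe sets were dimmer and did not pass the test. The one with the strongest difference of these gave 73.6, 79.2 and 77.3 units in the control cultures and 72.6, 66.9 and 64.6 in the shRNA cultures, again without overlap, with a log2 change of -0.15 (limma adjusted p = 0.467). The remaining one gave 73.4, 77.5 and 80.5 units against 78.5, 70.0 and 81.5, with overlapping groups and a log2 change of -0.02 (adjusted p = 0.960, limma). All 3 were designed on the same sequence record. Taken within each array, the log2 value of the brightest minus that of the remaining one was 3.18 ± 0.089 in the control cultures and 2.85 ± 0.184 in the shRNA cultures (SD, n = 3 each), a difference of -0.33 (exact two-sided permutation p = 0.1, the smallest that 3 against 3 allows). Against the other dim probe set the difference was -0.20 (exact permutation p = 0.1). The fall of Tgfbr1 rests on 1 of its 3 probe sets, and with the 3 averaged the gene was not called (log2 -0.17, limma adjusted p = 0.0934). The brightest probe set was called in 13 of 15 other settings, including those without each array in turn (limma adjusted p from 0.0168 to 0.047), but not on the values as deposited (0.0539) or without a trend in the prior variance (0.0544).

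Tgfbr1 has 2 promoter windows in the RefSeq table of build GRCm38.p6, each from 250 bases before to 50 after a transcript start, and they are shown because Tgfbr1 is the member gene that was called and its probe sets differed. The first lies at chr4:47352972-47353271 and the second at chr4:47385966-47386265, both on the plus strand. Capitals mark matches on either strand to GGGCGG (the Sp1 box), CAGACA (a Smad-binding box), TGANTCA (AP-1), TGACGTCA (CRE) or TATAAA.
Tgfbr1 first window: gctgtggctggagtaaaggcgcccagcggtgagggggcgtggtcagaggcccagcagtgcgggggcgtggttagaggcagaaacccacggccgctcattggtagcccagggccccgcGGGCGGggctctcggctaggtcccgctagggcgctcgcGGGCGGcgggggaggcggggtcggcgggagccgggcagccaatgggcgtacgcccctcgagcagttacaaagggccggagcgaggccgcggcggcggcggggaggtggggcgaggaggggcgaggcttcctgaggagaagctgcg
Tgfbr1 second window: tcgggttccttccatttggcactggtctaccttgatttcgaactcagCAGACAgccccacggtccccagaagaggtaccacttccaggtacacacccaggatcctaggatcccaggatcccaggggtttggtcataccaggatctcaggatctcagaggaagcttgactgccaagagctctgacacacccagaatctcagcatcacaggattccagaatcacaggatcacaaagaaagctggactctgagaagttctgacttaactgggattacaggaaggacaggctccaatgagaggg
The first window is 74.7% G and C and holds 2 matches to GGGCGG, and the second is 52% G and C and holds 1 match to CAGACA. Windows of Smad2, Smad4 and Smad7 were not examined. Counting both Tgfbr1 windows, the members examined had 6 windows for 5 genes, and there was none for Tgfb3 or Tgfbr3. None of the 6 held TGANTCA or TGACGTCA, which occur in 7.81% and 1.79% of 32851 windows of the same length. GGGCGG was present in 3 of the 6 (35.7% of all windows), CAGACA in 2 (21.0%) and TATAAA in 1, that of Tgfb2 (13.6%). A match is a run of letters and not a measured binding site.

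Tgfbr2, the type II receptor that binds the ligand first, was bright and close to even between the groups. Its brightest probe set gave 3463, 3631 and 3460 units in the control cultures and 3265, 3445 and 3491 in the shRNA cultures. The groups overlapped, the log2 change was -0.06 with a limma adjusted p of 0.422, and the 95% confidence interval as a fold ran from 0.908 to 1.01. The second Tgfbr2 probe set lay at 25.6 to 39.1 units over all arrays, close to the trpnX level, and the remaining one was near background. Tgfbr3 encodes betaglycan, the co-receptor that presents TGF-beta to Tgfbr2. Its 2 probe sets ranged from 1 to 17.5 units and were near background in both groups.

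Smad4, the partner shared by the TGF-beta and BMP branches, was lower in all 3 of its probe sets but passed the test in 1. The dimmest of the 3 gave 2166, 2088 and 2048 units on the control arrays and 1711, 1928 and 1704 on the shRNA arrays. The groups did not overlap, with means of 2100 ± 59.7 and 1781 ± 128 units (SD, n = 3 each). The level fell 1.19-fold (log2 change -0.25, SE 0.041, limma adjusted p = 0.0149). The brightest went from 2559 ± 85.8 to 2431 ± 40.4 units (log2 -0.09, limma adjusted p = 0.196) and the middle one from 2358 ± 87.1 to 2244 ± 75.5 (log2 -0.08, adjusted p = 0.179). Within each array, the log2 value of the brightest minus that of the dimmest was 0.29 ± 0.026 in the control and 0.44 ± 0.075 in the shRNA cultures, without overlap (SD, n = 3 each; exact two-sided permutation p = 0.1). All 3 were designed on 1 sequence record. By gene, Smad4 was not called on its brightest probe set, and it was called with the 3 averaged (log2 -0.14, limma adjusted p = 0.0259). The Smad4 call was lost without control replicate 1 (0.0618), 2 (0.0721) or 3 (0.0536) or shRNA replicate 1 (0.0569), on the values as deposited (0.0619) and without a trend in the prior variance (0.107, all limma adjusted p).

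Smad3 and Smad2 are the receptor-activated mediators. The brightest Smad3 probe set gave 1710, 1745 and 1663 units in the control cultures and 1497, 1567 and 1623 in the shRNA cultures. The groups did not overlap, but the log2 change of -0.13 (95% confidence interval -0.21 to -0.04) did not pass the test (limma adjusted p = 0.0895). Fitted by gene and with the dimmer genes left out, the same probe set did pass (limma adjusted p = 0.0408). The second Smad3 probe set gave 345 ± 18.1 and 358 ± 20.7 units (log2 0.03), and the dimmest gave 68.0 ± 8.16 and 65.7 ± 4.59 (log2 -0.04; SD, n = 3 each). Smad2 on its brighter probe set gave 646, 654 and 592 units against 594, 698 and 710, with overlapping groups, a log2 change of 0.05 and a 95% confidence interval as a fold from 0.946 to 1.13 (limma adjusted p = 0.720). Its dimmer probe set gave 85.4 ± 7.13 and 96.2 ± 7.18 units (log2 0.14, adjusted p = 0.541, limma).

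Smad7, the inhibitory Smad that TGF-beta signalling induces, did not differ detectably on either probe set. On the brighter the control arrays gave 1847, 1621 and 1663 units and the shRNA arrays 1679, 1816 and 1742. On the dimmer they gave 1306, 1374 and 1292 against 1413, 1307 and 1376. The groups overlapped on both, with log2 changes of 0.03 and 0.02 and limma adjusted p of 0.787 and 0.884. The 95% confidence intervals as a fold ran from 0.952 to 1.10 and from 0.924 to 1.12. Smad2, Smad4 and Smad7 lie on 1 chromosome, whose 459 measured genes had a median log2 change of -0.01.

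**Figure D2:**
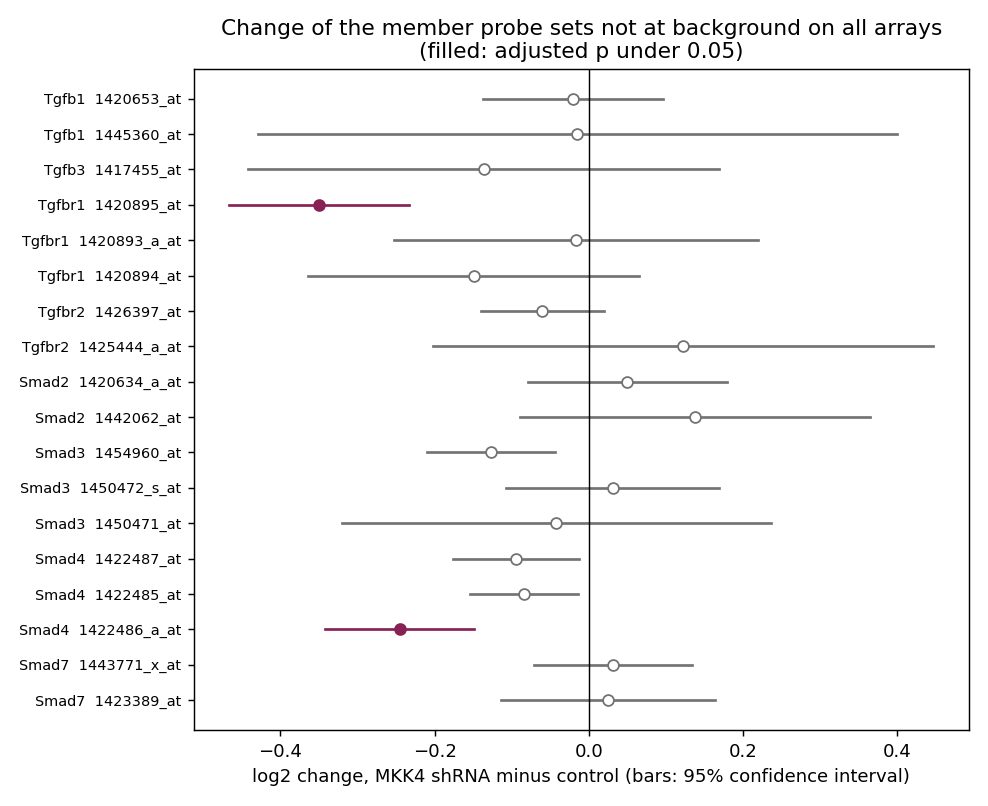
Log2 change (MKK4 shRNA minus control, 3 arrays each) of the 18 member probe sets that were not near background in both groups, with 95% confidence intervals from the limma fit; filled points passed an adjusted p of 0.05. The 2 filled points are 1 of 3 Tgfbr1 probe sets at -0.35 and 1 of 3 Smad4 probe sets at -0.25.

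**Figure D3:**
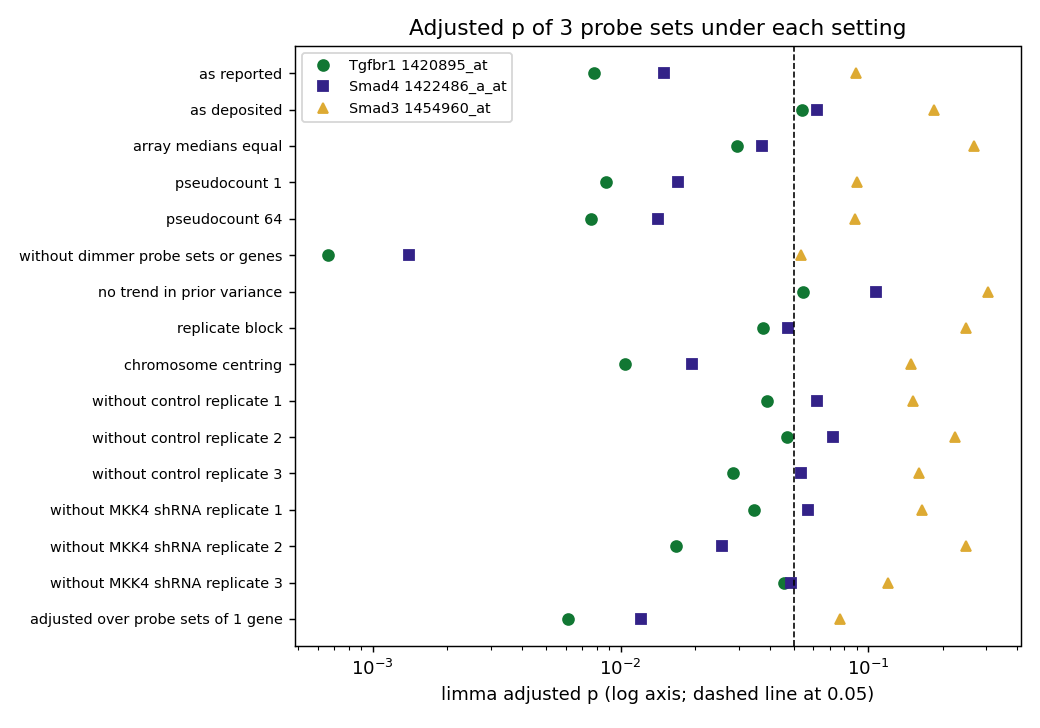
Limma adjusted p (log axis, dashed line at 0.05) of 1 probe set each of Tgfbr1, Smad4 and Smad3 as reported and under 15 other settings. Tgfbr1 lies left of the line in 13 of the 15, Smad4 in 9 and Smad3 in none.

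Other genes linked to TGF-beta superfamily signalling, among them regulators, cofactors and target genes, were read from 7 lists that hold no member. Together these had 153 distinct measured genes. Of these 18 rose and 10 fell, or 18.3%, against 11.8% of all genes. Brighter features were called more often, with 19.1% of the brighter probe sets called. Among the genes above the median brightness of the 18193, tested alone, 2630 were called, and 33 of the listed genes. No share of all genes matched to the lists for brightness was computed. The 18.3% is therefore not read as an excess. The 136 listed genes that were not near background in both groups had a median log2 change of -0.01, as over all genes. The lists were written with earlier results of these data known, so their counts are no independent evidence of a direction.

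Genes that hold or release the latent ligand moved in both directions. Latent TGF-beta binding proteins tether the ligand to the matrix, integrins and proteases release it, and small proteoglycans bind it. Of 20 measured genes, 16 were not called, 2 rose and 2 fell (median log2 -0.04 over the 16 not near background). The proteoglycan gene Bgn rose 5.51-fold, from 784, 823 and 813 units to 4497, 4744 and 4483, and the integrin gene Itgb5 rose from 757 ± 18.3 to 992 ± 31.9 units (SD, n = 3; log2 0.37, limma adjusted p = 0.00158). The membrane protease gene Mmp14 fell by 0.20 and the latent binding protein gene Ltbp3 by 0.17 on the log2 scale. Leaving out control replicate 1, 2 or 3 or shRNA replicate 3 ended both calls, as did shRNA replicate 2 for Mmp14 and shRNA replicate 1 for Ltbp3, with limma adjusted p from 0.0799 to 0.14 for Mmp14 and from 0.0519 to 0.0822 for Ltbp3. Mmp14 was called in 8 of 16 other settings and Ltbp3 in 4 of 16.

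Co-receptors and receptor regulators gave 3 rises and no falls among 29 measured genes (median log2 0.08, limma). Nrp1, which encodes neuropilin 1, a co-receptor that can bind TGF-beta, went from 106, 99.2 and 93.2 units to 247, 363 and 286, a log2 change of 1.42 (limma adjusted p = 0.00047), but its 3 other probe sets above background gave 0.07 to 0.35. Ppp1r15a, a phosphatase subunit gene whose product can act on the type I receptor with Smad7, rose from 551 ± 19.3 to 923 ± 17.1 units (log2 0.72). Tab2, the gene of an adaptor of the kinase TAK1, rose from 1903 ± 105 to 2279 ± 102 units (SD, n = 3; log2 0.24).

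Smads of the BMP branch and inhibitory Smads other than Smad7 gave 1 rise, Smad5, among 4 measured genes. Smad5 encodes a mediator of BMP signals, and on its brightest probe set it rose from 718 ± 7.28 to 820 ± 37.6 units (SD, n = 3; log2 0.17, limma adjusted p = 0.0214). The call was lost when control replicate 1, 2 or 3, or shRNA replicate 2 or 3, was left out (limma adjusted p 0.054 to 0.0753). Other Smad5 probe sets gave -0.02 to 0.36, and centring each chromosome on its median gave 0.10 with the call lost (limma adjusted p = 0.202). Of 21 Smad cofactor genes 1 rose and 3 fell: the Smad phosphatase gene Ppm1a rose by 0.16, and the deacetylase gene Hdac1, the corepressor gene Tgif2 and the phosphatase gene Ctdsp2 fell by 0.22, 0.18 and 0.17 on the log2 scale. Other Ppm1a probe sets gave log2 changes from -0.21 to 0.19 and those of Ctdsp2 from 0.04 to 0.15. Zeb2, named after its values were seen, was not called on its brightest probe set (0.09). Its 2 other probe sets above background gave 0.13 and 1.65. Leaving out single arrays ended the calls of Hdac1 (shRNA replicate 2, limma adjusted p = 0.0538), Tgif2 (control replicate 2 or 3, shRNA replicate 2 or 3, up to 0.0718) and Ctdsp2 (control replicate 1 or 3, shRNA replicate 1 or 3, up to 0.0748). Of 16 other settings, Hdac1 was called in 13, Tgif2 in 8 and Ctdsp2 in 6. Centring by chromosome took Tgif2 to -0.10 and ended its call (limma adjusted p = 0.143). Ctdsp2 changed sign with its probe sets averaged (0.0069) or without those that match several transcripts (0.15). Ppm1a was called in 12 of 16 other settings, and with its probe sets averaged it gave 0.08 (limma adjusted p = 0.438). It was also not called with equal array medians (0.0577), without a trend in the prior variance (0.0982) or with the replicate block (0.0594).

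Ligands and receptors of the neighbouring branches were mostly not called. Of 23 measured genes of BMP ligands, receptors and antagonists 1 rose, Bmp4, from 204 ± 1.86 to 256 ± 11.5 units (SD, n = 3; log2 0.29, limma adjusted p = 0.02), a call that was lost when control replicate 1, 2 or 3, or shRNA replicate 2 or 3, was left out (up to 0.0818). The replicate block also ended the Bmp4 call (limma adjusted p = 0.0843). In this list 8 of the 23 genes were near background in both groups. Among 15 genes of the activin and nodal branch limma called 0.

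Genes listed as induced by TGF-beta were called most often of the 7 lists, 10 higher and 5 lower of 41 measured (36.6%). The list includes the Id genes, which TGF-beta often represses in epithelial cells. Over the 40 listed genes not near background the median log2 change was -0.02. The share of all genes called, 11.8%, is not matched to these genes for brightness. The connective tissue growth factor gene Ccn2, a standard readout, rose from 3270, 3317 and 3198 units to 3768, 3930 and 4028, a log2 change of 0.25 with no overlap (limma adjusted p = 0.00158, called in 16 of 16 other settings). Cdkn2b, the CDK inhibitor gene through which TGF-beta arrests epithelial cells, rose from 3357 ± 35.0 to 3878 ± 139 units (SD, n = 3; log2 0.19, limma adjusted p = 0.0117). Its call was lost without shRNA replicate 3 (0.0529) and without a trend in the prior variance (0.0905, both limma adjusted p). Snai2, the gene of the E-cadherin repressor Slug, rose from 257, 247 and 222 units to 497, 574 and 620 (log2 1.15). The other called genes of this list, apart from Tnc, Id2 and Rhob given below, are named after their values were seen. Vim, the gene of the mesenchymal filament vimentin, rose from 5531 ± 274 to 8008 ± 83.3 units (log2 0.51, limma adjusted p = 0.00022), and its other probe sets gave 0.69 to 0.76. Fn1, the fibronectin gene, rose from 3415 ± 203 to 4844 ± 98.8 units (SD, n = 3; log2 0.49, limma adjusted p = 0.000611). The matrix gene Sparc and the growth factor gene Pdgfb rose by 0.19 and 0.27 on the log2 scale (limma adjusted p = 0.0045 and 0.00771), and the Sparc call was lost without a trend in the prior variance (0.0615).

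Some readouts of the pathway were not called or fell. Tgfbi, the TGF-beta induced matrix gene, went from 134, 129 and 137 units to 121, 113 and 119, without overlap but without passing the test (log2 -0.16, limma adjusted p = 0.285). Its change was 0.08 without probe sets that match several transcripts, on a probe set near background in 1 or both groups. The 2 Tgfbi probe sets above background besides the brightest gave -0.35 and -0.16. The feedback genes Skil and Pmepa1, like Smad7 induced by Smads, gave log2 changes of -0.10 (limma adjusted p = 0.168) and 0.09 (0.189), neither called. The 1 other Skil probe set above background gave 0.05, and the 2 others of Pmepa1 gave -0.02 and 0.12. Centring by chromosome took Pmepa1 to 0.17 and over the threshold (limma adjusted p = 0.0194). The small GTPase gene Rhob fell by 0.57 on the log2 scale. The tropomyosin gene Tpm2 fell by 0.51, a call lost without probe sets that match several transcripts (-0.24, limma adjusted p = 0.175). Tpm1 and Tsc22d1, called in 6 of 16 other settings each, fell by 0.13 and 0.11, and leaving out any of 5 of the 6 arrays ended each call (limma adjusted p up to 0.0758 and 0.0887); control replicate 3 for Tpm1 and control replicate 1 for Tsc22d1 were the exceptions. The matrix gene Tnc rose by 0.75, a call lost when control replicate 2 or 3, or shRNA replicate 2 or 3, was left out (limma adjusted p 0.0988 to 0.152). With its probe sets averaged Tnc gave 0.25 (limma adjusted p = 0.335), but no Tnc probe set other than the brightest was above background in both groups. Id genes, which encode inhibitors of differentiation that BMP induces and TGF-beta often represses in epithelial cells, split. Id2 went from 2367, 2164 and 2361 units to 1257, 1523 and 1398 (log2 -0.73, limma adjusted p = 0.000179), although without probe sets that match several transcripts it gave -0.17 and was not called (limma adjusted p = 0.393). Id1 and Id3, named after their values were seen, rose by 0.24 and 0.56 on the log2 scale, and both calls were lost when control replicate 1 or 3, or shRNA replicate 2 or 3, was left out (limma adjusted p up to 0.0699 and 0.0717). The Id1 call was also lost on the values as deposited (0.0536), with equal array medians (0.0507) and without a trend in the prior variance (0.0762, all limma adjusted p).

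Markers of other cell types were read beside these matrix and mesenchymal genes. Of 8 fibroblast markers limma called 0, and their summed intensity was 503 to 550 units on the control arrays and 487 to 566 on the shRNA arrays, with Dcn and Pdgfrb near background. Limma called 0 of 7 leukocyte markers (summed 1068 to 1176 against 998 to 1254 units, with Lyz2, Cd3e and Itgam near background). It also called 0 of 8 endothelial markers (608 to 784 against 552 to 729, with Vwf and Tie1 near background) and 0 of 8 alveolar and club cell markers (2134 to 2303 against 1940 to 2135). The brightest markers of these lists by control mean were, in this order, Col1a2 (205 units), Csf1r (771), Kdr (394) and Aqp5 (1514). Of 10 epithelial markers 6 fell (Cdh1, Epcam, Cldn7, Ocln, Esrp1 and Grhl2, by 0.13 to 0.35 on the log2 scale) and 1, Krt19, rose by 0.23. The 3 not called, Krt8, Krt18 and Cldn4, gave log2 changes of 0.08, 0.01 and 0.04. Over all genes 5.39% were called lower and 6.37% higher, shares not matched to these bright markers for brightness. Summed intensities were 52657 to 53106 units on the control arrays and 50842 to 52207 on the shRNA arrays. The part of these marker changes in the changes above was not tested.

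**Figure D4:**
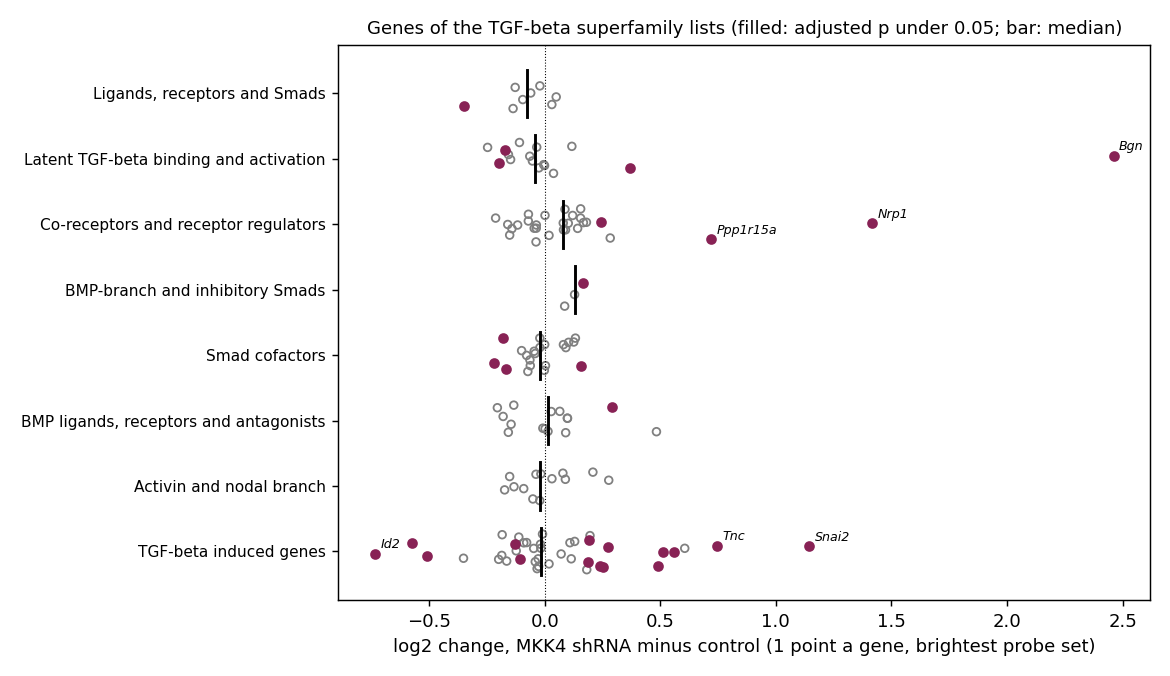
Log2 change (MKK4 shRNA minus control) of each gene on its brightest probe set. Shown are the 8 ligand, receptor and Smad genes and the genes of 7 lists linked to superfamily signalling that were not near background in both groups. Filled points passed a limma adjusted p of 0.05 over all genes and black bars are medians. Medians lie between -0.08 and 0.13, and Bgn, Nrp1 and Snai2 are the points farthest to the right.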

How the data were processed

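Labelled cRNA was prepared by the standard Affymetrix procedure, per the labels' protocols, for 3 control and 3 shRNA arrays. The labels describe delivery of the vectors both as retroviral infection and as lipid transfection. Each probe set has 1 deposited intensity per array, not log-transformed. How they were summarised, background-corrected and normalized is not given in the sources used here. Here 16 was added, log2 was taken and arrays were quantile-normalized. After leaving out 64 control probe sets, all others were fitted with limma 3.58.1 (R 4.3.3; lmFit, eBayes with a trend, group as the single term), and separately 18193 genes, each by its brightest probe set. Single values were tested by exact two-sided permutation. Gene names come from the platform annotation, updated by Entrez number, and promoter sequences from RefSeq (GRCm38.p6). The number of arrays limits the precision.

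Named were all members, Map2k4, the largest called changes per list (at most 4, groups not overlapping), and the targets Tgfbi, Cdkn2b, Skil, Pmepa1 and Ccn2; others are marked as named after their values were seen; listed genes that the tables lack were not analysed here. The members and lists were chosen with earlier results of these data known. Alternatives were the deposited values as they are, equal array medians, pseudocounts of 1 and 64, no dimmer features, no trend, a replicate block, centring by chromosome, each array left out, adjustment over probe sets of 1 gene, and, by gene, mean probe sets or none that can match several transcripts. The fit was tested on simulated data.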

Additional observations from a re-analysis of the deposited data

How the results depend on the processing

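The 2 member probe sets called became 0 on the values as deposited, 0 with a constant prior variance (no trend) and 1 to 2 with each array left out. The member genes called, 1, became 2 without the dimmer genes, which added Smad3, and stayed 1 with probe sets averaged, where Smad4 was called and Tgfbr1 was not. The 28 pathway genes called became 15 without a trend, 16 to 24 with each array left out and 33 without the dimmer genes. Of the called genes named, Ctdsp2 changed sign, to 0.0069 with its probe sets averaged and to 0.15 on probe sets specific to a single transcript. The uncalled Tgfbi also turned there, to 0.08, on a probe set near background in 1 or both groups. Over all probe sets the 2868 calls became 1842 as deposited, 941 without a trend, 1139 with the replicate block and 1185 to 1846 with each array left out. The brighter probe sets tested alone gave 4300 calls. An adjusted p near 0.05 thus depends on these choices. Map2k4 kept its direction and call in each setting, with log2 changes from -1.28 to -1.09. The replicate block changed neither call of a member probe set (2 called; Tgfbr1 adjusted p = 0.0375, Smad4 0.0475). Arrays of the same replicate number did not deviate together (r = -0.11 to -0.01 across genes), so the numbers are not taken as pairs. Without replicates beyond 3 a group, changes of dim probe sets such as Tgfb3 could not be resolved.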
